A study of Mus musculus with 8 samples.

Results

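The alpha crystallins and small heat shock proteins of the mouse lens were described from 8 genes, Cryaa, Cryab, Hspb1, Hspb2, Hspb3, Hspb6, Hspb7 and Hspb8. They were taken by gene symbol from a table of 35275 genes, and 7 of the 8 were among the 9794 genes that reached a mean of 1.0 FPKM in at least 1 group and entered the comparison of groups. FPKM is the number of fragments of a gene scaled to its length in kilobases and to the mapped fragments of the library. The RNA came from lens fiber cells (FC) of C57BL/6 mice (C57BL/6J by the study's methods), the elongated cells that fill the lens and lose their nuclei as they mature. In the first group, mice breathed cigarette smoke (CS) in a whole-body chamber for 5 hours a day on 5 days of the week over 3.5 months, beginning with their pregnant mothers and going on from birth. The other group was age-matched, untreated control (Ct) mice. Each group had 4 libraries, called CS1 to CS4 and Ct1 to Ct4 here after their labels, and each library was a pool of FC from the right eyes of 4 mice, dissected away from the epithelium under a microscope. A pool gives 1 value for its 4 mice, so the spread among mice within a pool was not measured, and the labels do not tell which pools were male and which female.

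Small heat shock proteins are chaperones without ATPase activity that bind unfolding proteins and hold them soluble until other chaperones take over. They share a conserved alpha crystallin domain and assemble into oligomers, often with each other. In the lens the pair encoded by Cryaa and Cryab makes up alpha crystallin, which is both a bulk component of the transparent cytoplasm and its main chaperone, and mutations in either gene cause cataract. Hspb1 (Hsp27) is a stress-induced chaperone that is phosphorylated downstream of the p38 kinase. Hspb2, Hspb3, Hspb6 (Hsp20) and Hspb7 are known mainly from skeletal, cardiac or smooth muscle, and Hspb8 (Hsp22) works with the co-chaperone Bag3 in the clearance of misfolded proteins. Heat shock factors induce several of these genes through the heat shock element, and the lens uses one of them, Hsf4, during FC maturation.

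The genes lie on 6 chromosomes of GRCm38, with positions from the GENCODE annotation of that build. Cryaa (ENSMUSG00000024041) is at chr17:31677807-31681733 on the plus strand. Cryab (ENSMUSG00000032060) is at chr9:50751325-50756636 on the plus strand, and Hspb2 (ENSMUSG00000038086) runs the other way at chr9:50751078-50752354. The pair overlaps, and 252 of the 834 exon bases of Hspb2 are also exon bases of Cryab on the opposite strand. Hspb1 (ENSMUSG00000004951) is at chr5:135887919-135889563 on the plus strand and Hspb8 (ENSMUSG00000041548) at chr5:116408491-116422864 on the minus strand. Hspb3 (ENSMUSG00000051456), a gene of 1 exon, is at chr13:113662896-113663676 on the minus strand. Hspb6 (ENSMUSG00000036854) at chr7:30552178-30555443 and Hspb7 (ENSMUSG00000006221) at chr4:141420779-141425311 are both on the plus strand.

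Promoters were read for 6 of the 8 genes in 7 windows, from 250 bases before to 50 bases after each RefSeq start site on GRCm38.p6. Of these, 3 sequences are printed, from 250 bases before the start site up to the first 10 transcribed bases, written 5′ to 3′ on the strand of the gene. They were chosen to set the lens gene at the top of the range beside a pair of stress chaperones at very different levels in FC. Capitals mark matches to a core recognition motif of Maf factors (TGCTGAC) in Cryaa and to a heat shock element written head to head (GAANNTTC) in the others.
Cryaa, chr17:31677681-31677940, plus strand: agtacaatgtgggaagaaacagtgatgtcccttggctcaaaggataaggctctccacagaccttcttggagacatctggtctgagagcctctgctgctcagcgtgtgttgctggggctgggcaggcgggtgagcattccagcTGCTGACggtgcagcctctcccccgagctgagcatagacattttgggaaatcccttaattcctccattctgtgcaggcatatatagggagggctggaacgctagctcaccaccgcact
Hspb1, chr5:135887669-135887928, plus strand: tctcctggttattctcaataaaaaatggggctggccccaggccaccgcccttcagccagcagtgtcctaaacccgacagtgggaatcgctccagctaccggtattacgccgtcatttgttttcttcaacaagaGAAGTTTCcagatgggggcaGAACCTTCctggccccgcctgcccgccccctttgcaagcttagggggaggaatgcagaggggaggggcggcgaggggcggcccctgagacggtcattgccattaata
Hspb8, chr5:116422855-116423114, minus strand: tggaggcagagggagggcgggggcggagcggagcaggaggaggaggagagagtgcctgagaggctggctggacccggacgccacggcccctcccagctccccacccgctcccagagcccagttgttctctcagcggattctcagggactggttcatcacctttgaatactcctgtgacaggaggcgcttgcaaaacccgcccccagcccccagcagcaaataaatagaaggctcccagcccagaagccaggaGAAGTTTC
The Maf motif of Cryaa began 108 bases before the RefSeq start site. That start site lies 124 bases inside the GENCODE gene, which begins further upstream, so the motif falls within the gene as positioned above. For Hspb1 and Hspb8 both sources gave the same start. Hspb1 held 2 heat shock elements, beginning 117 and 97 bases before the start site. In Hspb8 the match began 2 bases after the start base. Among windows that are not printed, Hspb3 had GAATTTTC beginning 224 bases before its start site, and 1 of the 2 windows of Hspb6 had GAAGTTTC beginning 120 bases before. The window of Hspb7 held none of the motifs searched, and Cryab and Hspb2 had no entry among the promoters. With both strands searched, GAANNTTC was found in 7.89% of all 32544 promoter windows, the tail to tail form TTCNNGAA in 8.55% and TGCTGAC in 4.65%, so that a match is a description of the letters and not evidence of a bound factor.

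The libraries held an estimated 18100000 to 23300000 fragments, and the mean depth of the CS libraries was 1.07 times that of the Ct libraries. The relative depths came from the size of 1 read in the FPKM values. The number of fragments also rests on annotated gene lengths, on which 715 of 4740 usable genes gave the same depth. With 1 length fitted for each gene, values were whole reads to within 0.02 of a read in all libraries for the 9794 tested genes. Libraries of 1 group were alike, with Pearson r over genes between 0.972 and 0.981. The 8 lens fiber markers found by symbol, of 9 listed, summed to 200280.0 to 206123 FPKM in Ct and 197395 to 205012 FPKM in CS libraries, so the label of FC held in every library. Lens epithelium markers summed to 88.1 to 168 FPKM in Ct and 78.4 to 116 FPKM in CS libraries, and Ct3 had the highest sum. All 7 of these markers that were tested had a negative log2 fold change, 1 of them, Npnt, at an unadjusted limma p under 0.05, where 2.08% of all tested genes were lower at that p and 51.2% had a positive value. Rod photoreceptor markers summed to 11.0 to 29.7 FPKM in Ct and 32.3 to 93.6 FPKM in CS libraries, and 8 of the 9 were higher in CS at an unadjusted limma p under 0.05, as were 2.75% of all tested genes, but none at an adjusted p under 0.05. Retinal pigment epithelium markers summed to 0.922 to 1.85 FPKM in Ct and 2.70 to 25.6 FPKM in CS libraries, and the 4 that were tested were all higher in CS at an unadjusted p under 0.05, beside the same 2.75% of all tested genes, but none at an adjusted p under 0.05. Markers of the pigmented iris and ciliary body summed to 0.348 to 2.61 FPKM in Ct and 0.425 to 6.52 FPKM in CS, and those of red blood cells to 0.265 to 1.73 FPKM in Ct and 0.4999 to 22.8 FPKM in CS libraries. Skeletal muscle markers did not separate the groups, at 3.63 to 6.20 FPKM in Ct and 3.94 to 7.13 FPKM in CS, with 2 of the 7 at 0 in every library. Of the 6 smooth muscle markers, Acta2 carried nearly all of the sum, while Des was at 0.0305 FPKM or less. The part of these other cell types in the results that follow was not tested. In whole pools, fewer cells of a type and less RNA per cell cannot be told apart.

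The levels of the 8 genes reached from near the top of expression in FC to no reads. Cryaa had the second highest mean FPKM of all genes, Cryab was at rank 10 and Hspb1 at rank 17. Hspb2 followed at rank 897, Hspb3 at rank 4888, Hspb6 at rank 7436 and Hspb8 at rank 8399, and Hspb7 was at 0 in every library.

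**Figure D1:**
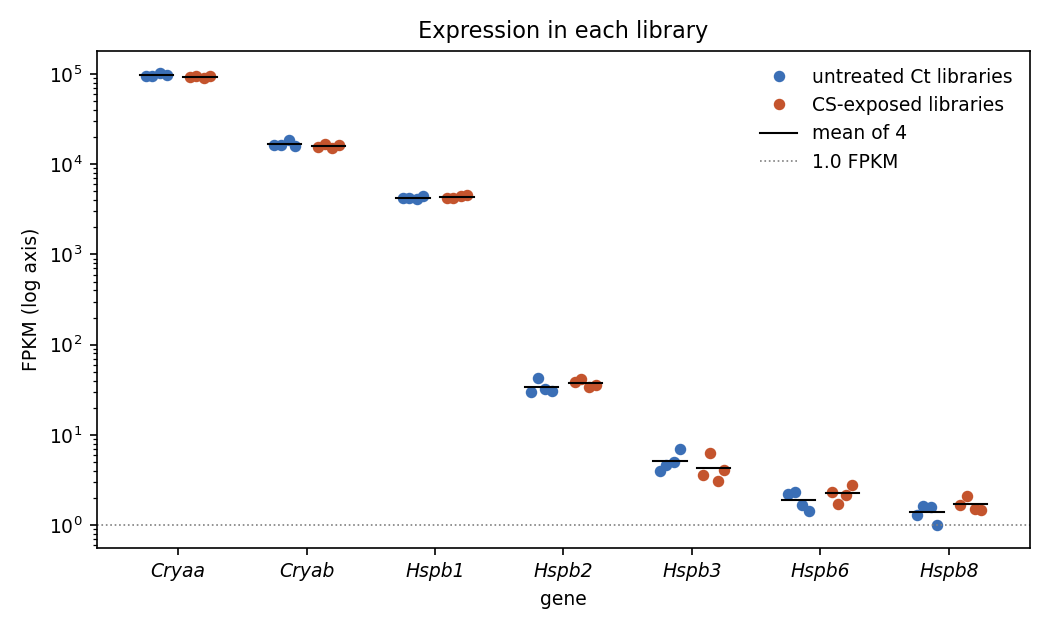
FPKM (log axis) of 7 genes in each of the 4 untreated Ct (blue) and 4 CS-exposed (orange) libraries, with the mean of each group as a bar; Hspb7 was at 0 in all 8 libraries and cannot be drawn on this axis. The genes span from 101638 FPKM for Cryaa in Ct3 down to 1.004 FPKM for Hspb8 in Ct4, and the groups overlap for each of the 7 genes.

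Neighbours in this order were set side by side on the FPKM scale, which is per length. The mean FPKM of Cryaa was 5.80 times that of Cryab, and the ratio lay between 5.53 and 6.02 in single libraries. Cryab was 3.80 times as high as Hspb1. Among the 7 detected genes, the widest gap was that between Hspb1 and Hspb2, with a ratio of mean FPKM of 121 and a range of 99.5 to 144 over libraries. Hspb2 was 7.58 times as high as Hspb3. Hspb3 was 2.25 times as high as Hspb6, and their ranges came close, with 3.06 FPKM in the lowest library for Hspb3 and 2.82 FPKM in the highest for Hspb6. Hspb6 and Hspb8 overlapped, with a ratio of means of 1.36 and Hspb6 the higher in 7 of 8 libraries. These ratios rest on the gene length used by the authors, which the steps of the FPKM gave as about 1186 bases for Cryaa, against 2076 exon bases in the annotation used here.

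**Figure D2:**
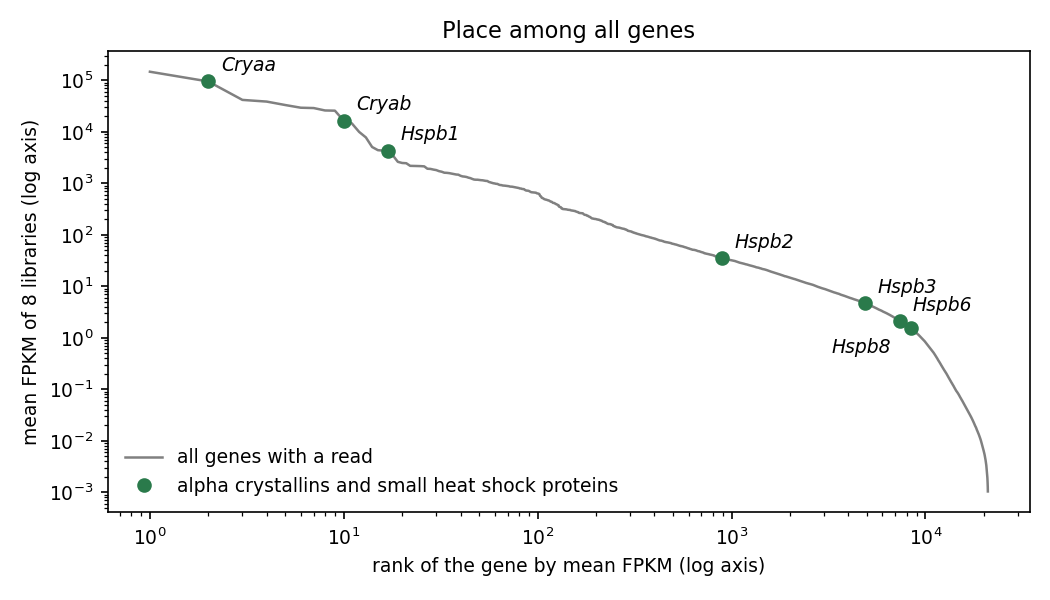
Mean FPKM over the 8 libraries (log axis) against the rank of the gene by mean FPKM (log axis), for all genes with at least 1 read (grey line) and for 7 of the 8 genes (green points). Cryaa, Cryab and Hspb1 are among the 17 most abundant transcripts, and a wide gap separates them from Hspb2, Hspb3, Hspb6 and Hspb8.

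Cryaa encodes the alpha A subunit, which is nearly restricted to the lens. Its level was 95500, 95055, 101638 and 96806 FPKM in Ct1 to Ct4. In CS1 to CS4 it was 91664, 94644, 90037 and 95815 FPKM. The highest library was Ct3, and 3 of the 4 CS libraries were below every Ct library, but CS4 lay inside the Ct range, so that the groups overlapped. Group means were 97250.0 ± 3018 FPKM (SD, n = 4) in Ct and 93040.0 ± 2657 FPKM (SD, n = 4) in CS mice. On the log2(FPKM + 0.1) scale used for all fold changes here, the difference of CS from Ct was -0.06 (SE 0.03), or -4.32%, with a 95% interval of the percent difference from -8.68 to 0.236. In limma p was 0.0608 (adjusted p = 0.956 over all genes tested), and the exact permutation test over the 70 assignments of libraries gave p = 0.0857, where 0.0286 is the smallest two-sided p that 4 against 4 libraries allow. The unadjusted p of Cryaa was under 0.05 in 4 of 18 alternative fits, its adjusted p in none. Cryaa alone took 10.7 to 12.1% of all fragments, at least 2077390 reads a library, so counting error was negligible, at a CV of 0.0651% beside 3.64% between libraries.

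Cryab encodes the alpha B subunit, which is also made in heart and muscle and is induced by heat. Its level was 16212, 16472, 18379 and 16075 FPKM in Ct1 to Ct4. In CS1 to CS4 it was 15666, 16959, 15262 and 16274 FPKM. Ct3 was again the highest library, and CS1 and CS3 were below every Ct library. Means were 16785 ± 1076 FPKM (SD, n = 4) in Ct and 16040.1 ± 741 FPKM (SD, n = 4) in CS mice. The log2 fold change was -0.06 (SE 0.05, 95% interval -0.17 to 0.04; limma, p = 0.191, adjusted p = 0.956), and the exact permutation p was 0.343. Ct3, which was highest for both genes, also had the highest sum of lens epithelium markers, at 168 FPKM. CS3, the lowest library for both, had the highest sums of rod photoreceptor markers, at 93.6 FPKM, and of retinal pigment epithelium markers, at 25.6 FPKM against 2.70 to 5.88 FPKM in the other CS libraries. Without Ct3 the log2 fold change of Cryab was -0.020 and that of Cryaa -0.04. Without CS3 that of Cryab was -0.041 and that of Cryaa -0.05.

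The balance between the transcripts of the subunits did not differ between groups beyond the spread of the libraries. The ratio of Cryaa to Cryab was 5.89, 5.77, 5.53 and 6.02 in Ct1 to Ct4 and 5.85, 5.58, 5.90 and 5.89 in CS1 to CS4. No group lay above the other, and the lowest library of each, Ct3 and CS2, had nearly the same value. On the log2 scale the ratio was 2.54 ± 0.05 (SD, n = 4) in Ct and 2.54 ± 0.04 (SD, n = 4) in CS mice, a difference of 0.00069 with a 95% interval from -0.08 to 0.08 (exact permutation test, p = 0.971, adjusted p = 0.971 over the 4 ratios and shares tested). A ratio within a library does not depend on how the library was scaled.

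Cryaa and Cryab together took 14.4, 14.3, 15.4 and 14.4% of the summed FPKM of all genes in Ct1 to Ct4. In CS1 to CS4 they took 13.7, 14.3, 13.7 and 14.3%. Ct1, Ct2 and Ct4 lay close together, and Ct3 stood above them. The mean share was 14.6 ± 0.534% (SD, n = 4) in Ct and 13.99 ± 0.369% (SD, n = 4) in CS mice, a difference of -0.653 percentage points (95% interval -1.45 to 0.142; exact permutation test, p = 0.0571, adjusted p = 0.229 over the same 4). Without Ct3 the difference was -0.386 points (exact permutation test, p = 0.200). Among the 16 crystallin genes alone, alpha crystallin made up 22.4 ± 0.703% (SD, n = 4) of the summed FPKM in Ct and 21.6 ± 0.544% (SD, n = 4) in CS mice. That difference of -0.831 points had a 95% interval from -1.92 to 0.257 (exact permutation test, p = 0.114, adjusted p = 0.229). Without Ct3 it was -0.484 points (exact permutation test, p = 0.257).

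**Figure D3:**
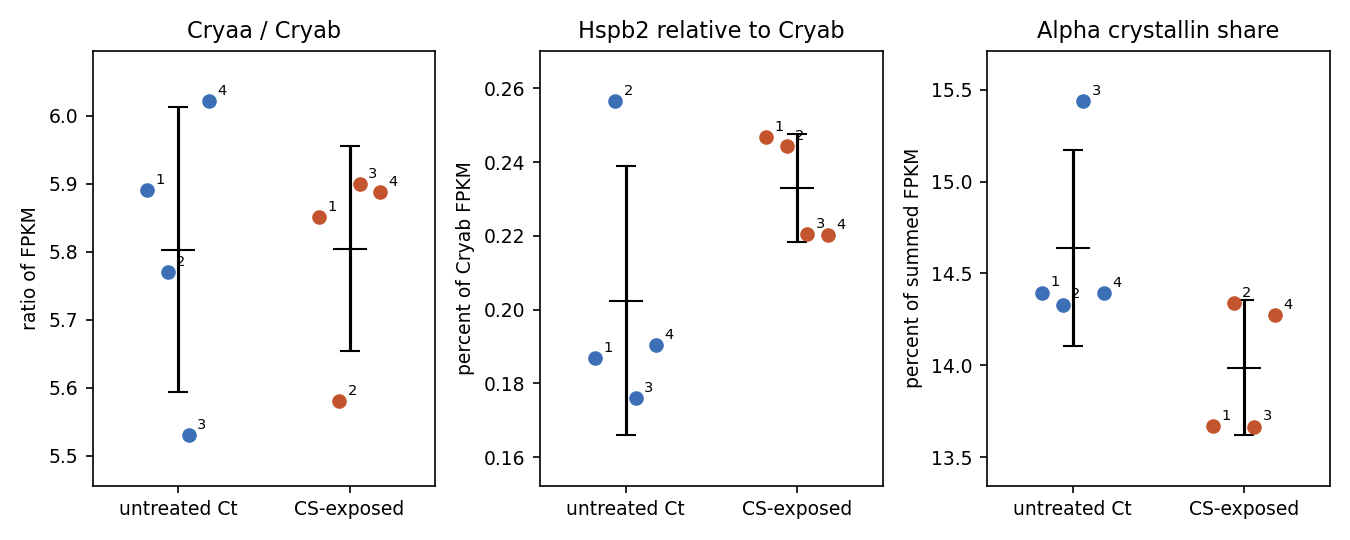
Ratio of Cryaa to Cryab FPKM (left), Hspb2 FPKM as a percentage of Cryab FPKM (middle) and the percentage of the summed FPKM of all genes taken by Cryaa and Cryab (right), in each Ct (blue) and CS (orange) library; small digits are the replicate numbers, bars the mean and SD of 4 libraries, and the axes do not start at 0. The groups overlap in all 3 panels, and the spread of the untreated group comes largely from Ct3 in the right panel and from Ct2 in the middle one.

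Hspb1 was the steadiest of the 7 genes over the 8 libraries. Its level was 4249, 4205, 4158 and 4413 FPKM in Ct1 to Ct4 and 4262, 4236, 4451 and 4536 FPKM in CS1 to CS4. CS3 and CS4 were above every Ct library, and CS1 and CS2 lay within the Ct range. Means were 4256 ± 111 FPKM (SD, n = 4) in Ct and 4371 ± 146 FPKM (SD, n = 4) in CS mice. The log2 fold change was 0.04 (SE 0.03, 95% interval -0.03 to 0.11; limma, p = 0.268, adjusted p = 0.965), and the exact permutation p was 0.200. In percent the interval of the difference ran from -2.31 to 7.95. The log2 fold change was 0.020 without CS4, 0.016 with scaling to genes other than crystallins and 0.022 with quantile normalization.

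Hspb2, the neighbour of Cryab, was at 30.3, 42.3, 32.4 and 30.6 FPKM in Ct1 to Ct4. In CS1 to CS4 it was at 38.6, 41.4, 33.6 and 35.8 FPKM. Ct1, Ct3 and Ct4 were below every CS library, and Ct2 was above them all. Means were 33.9 ± 5.66 FPKM (SD, n = 4) in Ct and 37.4 ± 3.39 FPKM (SD, n = 4) in CS mice. The log2 fold change was 0.15 (SE 0.10, 95% interval -0.08 to 0.38; limma, p = 0.175, adjusted p = 0.956), and the exact permutation p was 0.257. Without CS2 it was 0.1003. Without Ct2 it was 0.26 (limma, unadjusted p = 0.00632, adjusted p = 0.872), the exact permutation p then being 0.0571.

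The values of Hspb2 are uncertain for a further reason. Reads from its overlap with Cryab cannot be assigned without strand, the strand setting of the counting is not given in the sources used here, and Hspb2 was counted 465 to 804 times in libraries where Cryab was counted 344672 to 506403 times. Hspb2 stood at 0.176 to 0.257% of the FPKM of Cryab. The log2 ratio of Cryab to Hspb2 was 8.96 ± 0.24 (SD, n = 4) in Ct and 8.74 ± 0.09 (SD, n = 4) in CS mice. The difference was -0.22 with a 95% interval from -0.53 to 0.10 (exact permutation test, p = 0.171, adjusted p = 0.229). Without Ct2 it was -0.33 (exact permutation test, unadjusted p = 0.0286, the smallest possible with 1 library left out). Over the 8 libraries, the log2 levels of Hspb2 and Cryab had a Pearson r of 0.0018 (exact permutation p = 0.997, adjusted p = 0.997 over the 2 pairs of genes examined).

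Hspb3, Hspb6 and Hspb8 were detected at low levels with 33 to 121 reads behind a value. Hspb3 was at 3.99, 4.60, 5.01 and 6.93 FPKM in Ct1 to Ct4 and 3.58, 6.27, 3.06 and 4.14 FPKM in CS1 to CS4. CS1 and CS3 were below every Ct library, while CS2 was above 3 of the 4. Its log2 fold change was -0.29 (SE 0.21, 95% interval -0.75 to 0.18; limma, p = 0.207, adjusted p = 0.956), with an exact permutation p of 0.343. Leaving out CS2 gave -0.48 (limma, unadjusted p = 0.0207, adjusted p = 0.906), whereas leaving out Ct4 gave -0.13 and leaving out CS3 -0.15.

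Hspb6, which in smooth muscle is known as a relaxation factor, was at 2.21, 2.35, 1.67 and 1.45 FPKM in Ct1 to Ct4. In CS1 to CS4 it was at 2.32, 1.73, 2.17 and 2.82 FPKM. Only CS4 was above every Ct library. Its log2 fold change was 0.23 (SE 0.19, 95% interval -0.19 to 0.65; limma, p = 0.259, adjusted p = 0.962), with an exact permutation p of 0.343. It was 0.11 without Ct4, 0.12 without CS4 and 0.34 without CS2.

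Hspb8, the partner of Bag3, was at 1.30, 1.65, 1.59 and 1.004 FPKM in Ct1 to Ct4 and 1.67, 2.12, 1.53 and 1.48 FPKM in CS1 to CS4. CS1 and CS2 were above every Ct library, and CS3 and CS4 lay within the Ct range. Its log2 fold change was 0.29 (SE 0.20, 95% interval -0.14 to 0.72; limma, p = 0.171, adjusted p = 0.956), with an exact permutation p of 0.229. It was 0.15 without Ct4, 0.18 without CS2 and 0.18 with a pseudocount of 1. Bag3 itself was at 9.91 ± 0.779 FPKM (SD, n = 4) in Ct and 10.7 ± 0.794 FPKM (SD, n = 4) in CS mice (limma, adjusted p = 0.956; exact permutation p = 0.200).

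Hspb7, known from heart and skeletal muscle, had no read in any of the 8 libraries. A count of 0 allows up to 3 reads, which for this gene corresponds to 0.0466 to 0.0599 FPKM depending on the library, at the 2769 exon bases of the annotation, since no length could be read from values of 0. A shorter length would raise this limit, which covers counting error only. Hspb7 was thus not detectable at this depth and was not compared between groups.

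None of the 7 tested genes passed the test between groups. At an unadjusted limma p under 0.05, 0 of 7 were called, where 4.83% of all 9794 tested genes were (2.75% higher and 2.08% lower in CS), and 0 of 7 at an adjusted p under 0.05, where 0.0102% were. With limma-voom on the recovered reads 1 of 7 was called at an unadjusted p under 0.05, namely Cryaa (adjusted p = 0.953), where 4.93% of all genes were. The 4 and 4 libraries did not separate for any of the 7 genes, against 3.08% of all genes tested. Of the 7 fold changes, 4 were positive and 3 negative. Their median was 0.04 on the log2 scale and the median of their sizes 0.15, beside 0.0043 and 0.08 for all tested genes.

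**Figure D4:**
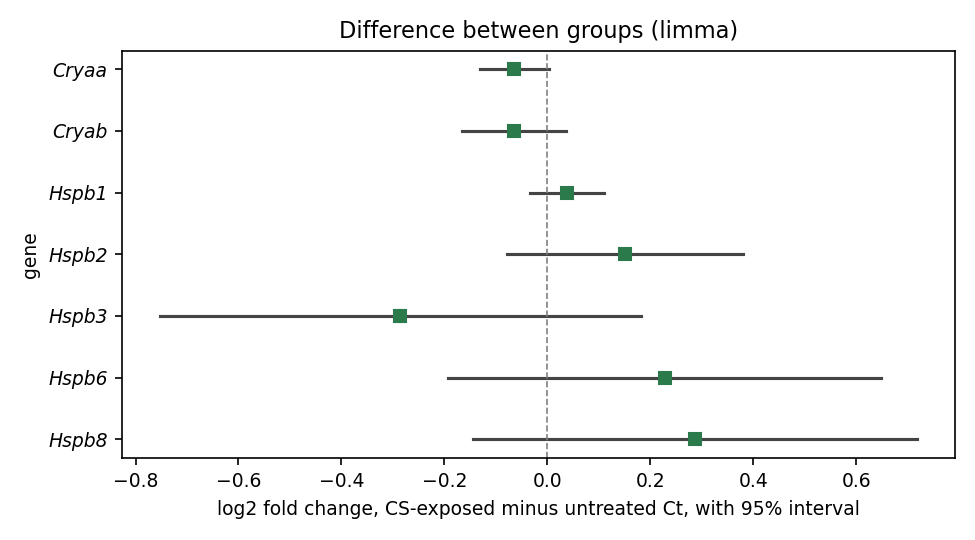
Log2 fold change of CS-exposed against untreated Ct libraries (squares) with its 95% interval (lines) for 7 genes, from the limma fit with 4 libraries a group. Every interval includes 0, and those of Hspb3, Hspb6 and Hspb8, the genes with the fewest reads, are the widest.

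The spread between libraries and its counting error were set side by side. The CV between the 8 libraries was 3.64% for Cryaa, 5.75% for Cryab and 3.13% for Hspb1, and counting alone would give 0.345% or less. For Hspb2 the CV was 13.2%, with 3.99% from counting. For Hspb3, Hspb6 and Hspb8 it was 28.2, 21.4 and 20.8%, with 11.4, 10.7 and 12.99% from counting. The SD of Cryaa and Hspb1 within groups was in the lowest 1.25 and 1.29% of all tested genes, and that of Hspb3 was above 89.7% of them.

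**Figure D5:**
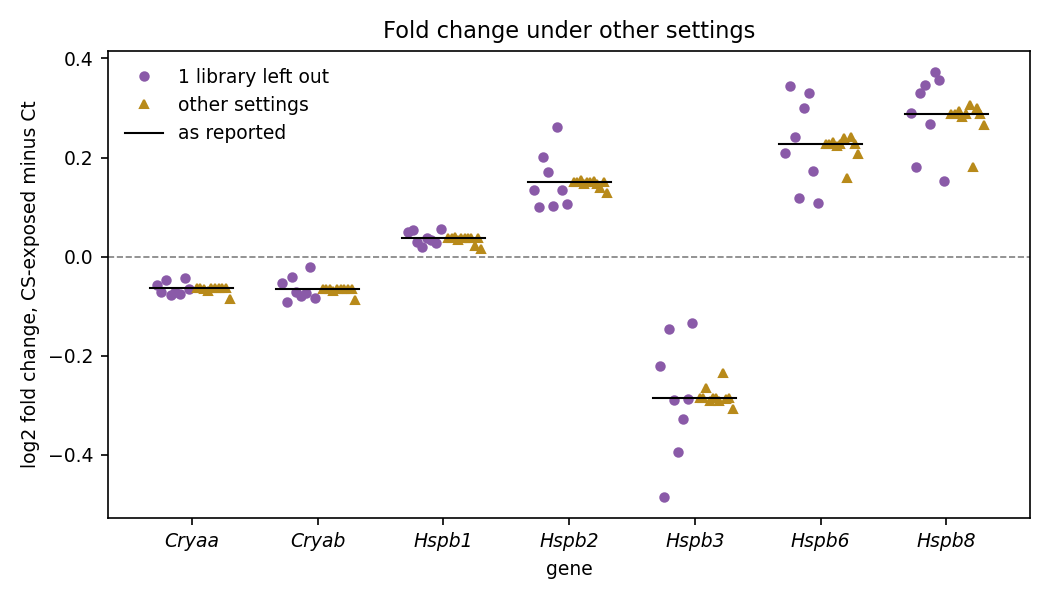
Log2 fold change of 7 genes with 1 library left out (purple points), under other settings of the fit (yellow triangles) and as reported (black lines). The direction of each gene is the same under all settings drawn, while the size for Hspb3 runs from -0.48 to -0.13 and that for Hspb2 from 0.10 to 0.26.

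The levels of Cryaa and Cryab were correlated over the libraries. Pearson r of their log2 levels was 0.885 over the 8 libraries (exact permutation p = 0.00712, adjusted p = 0.0142 over the 2 pairs examined), and Spearman rho was 0.548 (exact permutation p = 0.171, adjusted p = 0.342). CS3 and Ct3 lay farthest from the median of Cryaa, and r was 0.392 once both were dropped, so that the relation rests on those. Within Ct r was 0.918 and within CS 0.852, over 4 libraries each. The levels of both genes share the scaling of the library. For Cryab and Hspb2, Spearman rho was 0.238 (exact permutation p = 0.582, adjusted p = 0.582), and r was 0.401 without CS3 and Ct3. Within Ct r of this pair was -0.0034 and within CS 0.766, over 4 libraries each.

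The tested genes with the profile most like each of the 7 over the 8 libraries were listed as a description, from Pearson r of log2 levels among 9794 genes. For Cryaa they were Gm26982 (r = 0.957), Kdm1b (0.9497) and Mrpl55 (0.946), and for Cryab Nnat (0.960), Hdac8 (0.937) and again Mrpl55 (0.926). For Hspb1 they were Tasp1 (0.966), Itpk1 (0.962) and Rpl14 (0.955). For Hspb2 they were Snx15, Tug1 and Stambp, for Hspb3 Pigh, Slc25a5 and Cops4, for Hspb6 Phf10, Ube2b and Taf1a, and for Hspb8 Aamp, Zfp60 and Pmm2, with r from 0.915 to 0.976. None of these lists holds another of the 7 genes.

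Genes that regulate or assist these chaperones were read in the same fit. Of 5 heat shock factors, 3 were tested and 1, Hsf4, was higher in CS at an unadjusted p under 0.05, where 4.83% of all tested genes were called and 2.75% were higher. Hsf4, the factor of the lens, was at 135, 141, 138 and 139 FPKM in Ct1 to Ct4 and 143, 144, 151 and 150 FPKM in CS1 to CS4, so that the groups did not overlap, as for 3.08% of all tested genes. Its log2 fold change was 0.09 (SE 0.04; limma, p = 0.0416, adjusted p = 0.956; exact permutation p = 0.0286), and the unadjusted p was under 0.05 in 8 of 19 alternative fits. It was not with median centring, scaling to genes other than crystallins, the replicate block or quantile normalization, the last giving a log2 fold change of 0.06. Hsf1, the main factor of the heat shock response, was at 9.12 ± 0.648 FPKM (SD, n = 4) in Ct and 9.41 ± 0.978 FPKM (SD, n = 4) in CS mice (limma, adjusted p = 0.989; exact permutation p = 0.657). Hsf3 was listed at 0 in every library.

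Of 12 partners of small heat shock proteins, 9 were tested, 1 was higher and none lower at an unadjusted p under 0.05, beside the 4.83% of all tested genes called, with a median log2 fold change of 0.03. The one was Dnajb1, a co-chaperone of Hsp70, at 235, 222, 213 and 223 FPKM in Ct1 to Ct4 and 242, 239, 256 and 240 FPKM in CS1 to CS4. Every CS library was above every Ct library, where 3.08% of all tested genes had no overlap of the groups, and the log2 fold change was 0.13 (SE 0.04; limma, p = 0.0112, adjusted p = 0.956; exact permutation p = 0.0286). Its unadjusted p was under 0.05 in 18 of 19 alternative fits and not with eBayes without a trend, and quantile normalization gave a log2 fold change of 0.08. Hspa8, the constitutive Hsp70, was at 999 ± 75.3 FPKM (SD, n = 4) in Ct and 1045 ± 12.6 FPKM (SD, n = 4) in CS mice (limma, adjusted p = 0.956; exact permutation p = 0.286). The inducible Hspa1a and Hspa1b, near-identical copies that can share reads, were below 1 FPKM in all libraries.

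The other lists held 1 further gene at that threshold, which 4.83% of all tested genes passed, 2.75% as higher and 2.08% as lower. Of 6 kinases upstream of the small heat shock proteins, 3 were tested and none was called, and Mapkapk2, the kinase of Hspb1, was at 5.81 ± 0.839 FPKM (SD, n = 4) in Ct and 5.44 ± 0.634 FPKM (SD, n = 4) in CS mice (limma, adjusted p = 0.985; exact permutation p = 0.457). Of 11 regulators of lens crystallin genes, 10 were tested and none was called, among them Maf at 65.0 ± 2.42 and 67.2 ± 0.927 FPKM (SD, n = 4 each). All 14 beta and gamma crystallins were tested, 1 was higher at an unadjusted p under 0.05 and none lower, with a median log2 fold change of -0.0031. It was Crygb, at 37377 ± 2087 FPKM (SD, n = 4) in Ct and 40041 ± 1706 FPKM (SD, n = 4) in CS mice (log2 fold change 0.10; limma, p = 0.0385, adjusted p = 0.956; exact permutation p = 0.171), whose groups overlapped and whose near-identical relatives can share reads. Its unadjusted p was under 0.05 in 10 of 19 alternative fits and not with median centring, scaling to genes other than crystallins or quantile normalization, the last giving a log2 fold change of 0.03. Of the 3 other genes listed with the family, whose domains were not examined here, Hspb9 and Odf1 stayed below 0.3 FPKM. Hspb11 was tested, at 21.7 ± 1.08 FPKM (SD, n = 4) in Ct and 20.7 ± 1.54 FPKM (SD, n = 4) in CS mice. No gene of these lists had an adjusted p under 0.05.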

How the data were processed

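RNA of lens FC from 4 CS-exposed and 4 untreated Ct pools was measured by RNA-Seq with paired reads of 150 bases. The submitters' processing notes name STAR 2.5 and HTSeq 0.6.1, used by the authors to align reads to GRCm38 (mm10) and to count them per gene. The deposited values are FPKM of each library. The annotation release is not given in the sources used here. Per the file headers, the log2 fold change, p-value and adjusted p-value of the authors' own comparison were deposited as well, and these and the group means were not used. The table held 0 columns of other samples. Levels between genes depend on the authors' gene lengths, and scaling per library lets a few very abundant crystallins move the value of every other gene.

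The test was limma 3.58.1 in R 4.3.3 (lmFit, eBayes with a trend, two-sided), run on log2(FPKM + 0.1) of the 9794 genes whose mean reached 1.0 FPKM in Ct or in CS, with Benjamini-Hochberg adjustment over all of them. The pseudocount makes fold changes of low genes too small. Ratios, shares and single genes were tested by exact permutation over the 70 assignments of libraries. The labels call each pool a biological replicate. Whole reads and depths (18100000 to 23300000 fragments, an estimate) were recovered from the steps of the FPKM with GENCODE gene lengths, and their Poisson spread gave the counting error. With 1 length fitted for each gene, whole reads were found for 100% of tested genes to within 0.02 of a read. Python 3.11.15, numpy 2.4.6, pandas 2.3.3, scipy 1.17.1 and matplotlib 3.10.9 were used. On simulated data with 9645 genes in the fit, calls were counted at an adjusted p under 0.05. A change of 1 on the log2 scale was called for 89.9% of genes and a change of 0.5 for 43.3%. Of unchanged genes 0.0952% were called. The simulated libraries were drawn independently of each other. The fold changes of the 7 tested genes, at most 0.29 in size, were smaller than those simulated, so these shares do not bear on them.

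All 8 genes are named whatever their values, along with genes of the related and marker lists and the 3 tested genes most correlated with each. The 8 genes and the lists were chosen with earlier results of these data known. Alternatives were pseudocounts of 1 and 0.01, no minimum or a minimum of 5 FPKM, median centring, scaling to genes other than crystallins, quantile normalization, eBayes without a trend or robust, the replicate number as a block, and each library left out. limma-voom on the recovered reads was added after seeing the data.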

Additional observations from a re-analysis of the deposited data

Results flagged for a closer look

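Within the groups of 4 libraries, the gap between an extreme library and its nearest neighbour was set against the whole range. Of 22 groups examined, 2 passed Dixon's critical value, and chance alone gives about 1.1. The log2 ratio of Cryaa to Cryab was 2.48 in CS2, while the other 3 CS libraries lay between 2.55 and 2.56. The share of the summed FPKM of all genes taken by Cryaa and Cryab was 15.4% in Ct3, while the other 3 Ct libraries lay between 14.3 and 14.4%. Ct3 also had the highest sum of lens epithelium markers, at 168 FPKM against 88.1 to 115 FPKM in the other Ct libraries, and Foxe3, a factor of the lens epithelium, was at 64.0 FPKM there and at 25.1 to 34.8 FPKM in the others. The part of these markers in the alpha crystallin share was not tested.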

How the results depend on the processing

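Over all alternatives, 3 exact tests newly passed p under 0.05, 6 counts of genes called moved and 5 differences reversed, while the other 291 values kept their direction and, for fold changes, stayed at an adjusted p over 0.05. The 0 genes called at an unadjusted p under 0.05 became 1 with robust eBayes (Cryaa), with scaling to genes other than crystallins (Cryaa) and with limma-voom (Cryaa), and 0 to 1 with 1 library left out. Those were Cryaa without CS4, Hspb3 without CS2 and Hspb2 without Ct2. Leaving out 1 library, the log2 ratio of Cryaa to Cryab differed by -0.022 to 0.019, and that of Cryab to Hspb2 by -0.33 to -0.15, the former without Ct2 (exact permutation p = 0.0286, the smallest 3 against 4 allow). The alpha crystallin share of all FPKM differed by -0.770 to -0.386 points, and without CS2 the exact permutation p was 0.0286. Cryaa differed by -0.08 to -0.04, and without CS4 its exact permutation p was 0.0286. Adjusted p of the 7 genes ran from 0.872 to 0.9998 over all fits. Hspb6 and Hspb8 had no value with a minimum of 5 FPKM, nor Cryaa and Cryab with quantile normalization, where each held the same rank in every library. Of all genes, 473 of 9794 were called at an unadjusted p under 0.05. Without a minimum 862 of 21019 were, and with a minimum of 5 FPKM 226 of 4822. Scaling to genes other than crystallins gave 200 higher and 287 lower in place of 269 and 204. It scales all genes of a library by the same factor, and the median log2 fold change was -0.018 in place of 0.0043. Why that factor differed between groups was not tested. Same-numbered libraries had correlations of their deviations of 0.012 to 0.161, with a mean of 0.090. Libraries of different numbers had a mean of -0.030, and 6 of 8 correlated best with their own number. The main fit did not take the numbers as pairs, and what same-numbered libraries share was not tested. With the replicate number as a block, 0 of the 7 genes were called (522 of all genes, against 473). At an adjusted p under 0.05 the counts over all genes were 5 with the block and 1 without. With this block the smallest exact p was 0.125. For Hspb3, Hspb6 and Hspb8, with at most 121 reads a library, counting error alone gave a CV of 10.7 to 12.99%.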
